A study of Mus musculus with 35 samples.

Results

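The 10 libraries of label-retaining basal cells from 4 mouse epithelia, named slow-cycling in the study, were set against the 10 libraries of basal cells that had lost the label, named fast-cycling, in order to find genes that moved the same way in each. Members were all libraries whose titles name the basal layer of back skin, tail skin, palate or tongue, 20 of the 35 libraries of the series, and no measured value was used to choose them. The tissues are the epidermis of back and tail skin and the epithelium of palate and tongue. All groups shared the strain C57BL/6J, an age of 2 months and the genotype K5-tTA/pTRE H2B-GFP, the controls included. In this system keratin 5 promoter activity drives a histone-GFP fusion until doxycycline in the chow stops it, and each later division dilutes the label. Cells that kept the label are called LRC and cells that lost it nLRC. The mRNA of division genes did not follow these names in each tissue: summed mitosis genes were higher in LRC in all 3 tail and both palate pairs. LRC and nLRC gave 3 libraries each in back and in tail skin after 2 weeks of doxycycline, and 2 each in palate and in tongue after 10 days. The chase was thus shorter in the oral tissues, and tissue and chase length cannot be told apart. Only cells in which the keratin 5 promoter had been active could carry label, and the sources used here do not name the antibodies of the sort.

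The basal layer of a stratified epithelium holds the cells that divide and feed the layers above. How often they divide differs from cell to cell, and label retention is a standard way to separate rarely dividing cells from those that divide often. Slow cycling has been tied to low MYC, low growth factor signalling and altered metabolism in several stem cell systems, while the oral epithelia renew faster than skin.

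Genes were tested on deposited read counts, in 1 model with a term for each of the 10 pairs of LRC and nLRC libraries that share a tissue and a replicate number, and 1 term for LRC over nLRC. Values are normalised CPM (counts scaled to library size), and effects are log2 fold changes of LRC over nLRC ± standard error. The labels neither explain the number nor state that each library is a separate animal; the p-values therefore describe how these samples vary, part of which may be technical. Counts of Xist and the Y-linked gene Ddx3y were both present, or the same one was absent, in both libraries of all 10 pairs at a limit of 1 CPM. In 3 pairs (both of palate and the first of tongue) both genes were present, so those libraries held RNA of male and female cells. Presence alone cannot show that the 2 libraries of a pair came from the same animals or held equal shares of them. Xist was at 212 CPM in LRC against 467 in nLRC in the first palate pair, and 937 against 218 in the second. Libraries held 10975551 to 20560481 gene reads. The back libraries had been processed apart from the others by the authors, and 4 features with ribosomal RNA-like reads took 0.11 to 0.345% of reads there, against 9.39 to 19.831% elsewhere. No pair crosses that divide. The basal keratin genes Krt5 and Krt14 stood high in all 20 libraries, at 4730 CPM or more of Krt5 and 3870 or more of Krt14.

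Across the 4 tissues 110 of 17103 genes tested (0.643%) differed between LRC and nLRC libraries (edgeR quasi-likelihood test, Benjamini-Hochberg adjusted p under 0.05). Of these, 51 were higher (0.298%) and 59 lower (0.345%). One direction of the fitted effect in all 4 tissues was held by 98 of the 110 (0.573% of all genes), 44 higher (0.257%) and 54 lower (0.316%). By sign alone, without the test, 2937 genes (17.2%) had 1 direction in all 4 tissues, 1270 higher (7.43%) and 1667 lower (9.75%). In all 10 pairs, 1 direction was held by 69 of the 110 and by 307 of all genes (1.8%), counts that come from the same libraries as the test. The effects were small: the median size among the 110 was 0.69 on the log2 scale. The 12 genes past the test without 1 direction in 4 tissues were Alb, Cyp3a13, Dcn, Elovl3, Lpl, Ltf, Muc5ac, Olig1, Pkib, S100g, Skint7 and Spink5, 8 of them with no reads in at least 1 tissue.

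Each tissue was given its own effect in 1 fit of all 20 libraries, and the tissues gave very unequal numbers of genes. That fit shares 1 estimate of the spread, so the count of a tissue also depends on libraries of the others. In back skin 494 genes (2.89%) passed, 95 higher (0.555%) and 399 lower (2.33%), and in tail skin 2305 (13.5%), 1236 higher (7.23%) and 1069 lower (6.25%). Palate gave 72 (0.421%), 59 higher (0.345%) and 13 lower (0.076%), and tongue 143 (0.836%), 46 higher (0.269%) and 97 lower (0.567%). Of the 110 shared genes, 33 also passed in back, 87 in tail, 7 in palate and 12 in tongue, so most of them passed in tail skin. Cyp2b10 was the 1 gene past the test in the same direction in each tissue. Another 15 genes passed in 3 tissues in the same direction, and 7 of these were among the 110: Amotl2, Arrdc3, Chit1, Il1r2, Krt80, Scd1 and Spink5.

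The LRC effects of different tissues were not alike across the genome. Across 16465 genes the effects of 2 tissues correlated at Pearson r = 0.357 for tail and palate, 0.088 for back and tongue, −0.014 for back and palate, −0.071 for back and tail, −0.117 for palate and tongue, and −0.185 for tail and tongue, as a description over genes, which are not independent. The effect itself differed between tissues at 1170 genes (6.84%), and between skin and oral tissues at 202 (1.18%). Among the 110 shared genes 11 (10%) had an effect that differed between tissues, 9 of them among the 51 higher and 2 among the 59 lower.

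Directions were then read in the tissue that had no part in choosing the genes. Of genes past the test in the 3 other tissues, 21 of 34 (61.8%) kept their sign in back, against 57.8% of all genes. In tail 3 of 4 did (75%, against 62.7%). In palate 50 of 80 did (62.5%, against 66.9%), and in tongue 145 of 253 (57.3%, against 44.9%). The share stood below that of all genes in palate, near it in back and above it in tail, with 4 genes, and in tongue. Removing tail skin left 6 genes past the test, among them Alb, Il1r2, Pxdn, Scd1 and Skint7. The 4 oral pairs alone gave 0 in edgeR, with 702 genes at an unadjusted p under 0.05, while the 6 skin pairs alone gave 266.

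A gene of lipid synthesis was among the falls. Scd1 (ENSMUSG00000037071.3, chromosome 19, 44394455 to 44407879, mm10) encodes stearoyl-CoA desaturase, which makes monounsaturated fatty acids. It had 103, 150 and 139 CPM in back LRC libraries against 167, 403 and 352 in back nLRC, and 117, 80.1 and 109 in tail LRC against 461, 279 and 218 in tail nLRC. Palate had 13.9 and 14.7 CPM in LRC against 21.8 and 27.7 in nLRC, and tongue 2.06 and 1.66 in LRC against 7.21 and 5.04 in nLRC. No LRC library reached an nLRC library of its own tissue. The common effect was −1.29 ± 0.14 (2.45-fold lower, adjusted p = 0.00444, edgeR quasi-likelihood test), with a test of a difference between tissues that missed the threshold (adjusted p = 0.28, edgeR).

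List counts are given beside the shares over all genes tested, 0.298% higher and 0.345% lower. Of the list of cholesterol synthesis genes, 0 of 24 rose and 1 fell; 22 had a fold change below 0, with a median of −0.23 against −0.006 over all genes tested. In tongue the median of the list was 0.06.

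Sebocytes, which fill the sebaceous gland with lipid, have markers that were counted as a list, which holds Scd1 itself. Of 18 markers tested 0 rose and 3 fell, namely Scd1, the fatty acid elongase Elovl3 and the lipid droplet gene Cidea, against 0.345% lower of all genes, and the median was −0.83. The list's most abundant member, the fatty acid synthase gene Fasn, is used by many cell types. The summed level of the list was 585 to 707 CPM in back LRC libraries against 738 to 1260 in back nLRC, and 548 to 640 in tail LRC against 793 to 1340 in tail nLRC. In palate it was 411 to 495 in LRC against 447 to 499 in nLRC, and in tongue 417 to 478 against 449 to 482, so in both oral tissues the ranges overlapped. Of the list, Mc5r and Elovl3 were at 0 CPM in all palate and tongue libraries, but other members had reads in both oral tissues. The log2 ratios of Cidea were −0.57 and 0.70 in the palate pairs and −1.24 and 0.07 in the tongue pairs. Those of Mgst1 were 0.17 and −1.89 in palate and −2.67 and −0.74 in tongue. Scd1 was lower in LRC in both oral tissues. In bulk RNA, fewer cells of a type and less RNA per cell cannot be told apart. The part of sebocytes in the skin and oral values was not tested.

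**Figure D1:**
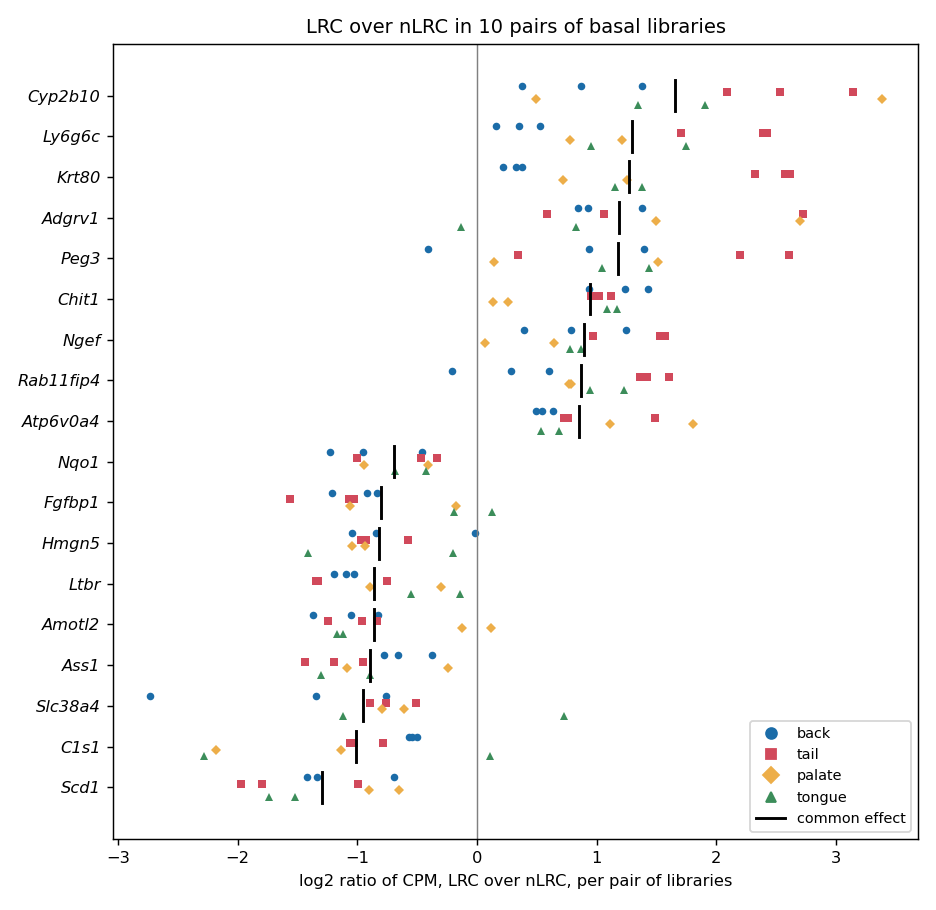
Log2 ratio of CPM, LRC over nLRC, in each of the 10 pairs of libraries (x axis) for 9 genes with the largest shared rises and 9 with the largest shared falls, as named by the rule (y axis). Symbols mark the tissue of a pair and black bars the common effect of the model; all 10 pairs of Scd1 lie left of 0 and all 10 pairs of Krt80 lie right of it.

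Ass1, argininosuccinate synthase of arginine synthesis (ENSMUSG00000076441.9, chromosome 2, 31470207 to 31520672), had 20.9, 24.9 and 24.6 CPM in back LRC against 33, 42.9 and 32 in back nLRC, and 59.4, 45 and 51.5 in tail LRC against 161, 103 and 99.9 in tail nLRC. In palate it had 36.9 and 31.4 CPM in LRC against 43.7 and 67 in nLRC, and in tongue 32.4 and 40.6 in LRC against 80.2 and 75.4 in nLRC. LRC and nLRC libraries did not overlap within any tissue, and the common effect was −0.90 ± 0.11 (1.86-fold lower, adjusted p = 0.00553, edgeR). The serine synthesis enzymes Phgdh (−0.59 ± 0.11) and Psat1 (−0.53 ± 0.10) also fell, each lower in 10 of 10 pairs. The amino acid transporter gene Slc38a4 fell by 0.95 ± 0.20 and was lower in 9 of 10 pairs, at a median of 12.1 CPM over the 10 LRC libraries and 22.8 over the 10 nLRC libraries. Its level was low in 2 tissues. Back libraries held 0.766 to 1.42 CPM in LRC against 2.28 to 5.93 in nLRC. Tongue libraries held at most 0.599 CPM, and the first tongue pair pointed up. Slc38a4 passed in 2 of the 10 fits with 1 pair left out. Odc1, the first enzyme of polyamine synthesis, fell by 0.51 ± 0.11. It was the 1 member that fell of 14 genes tested on a list of G1 cyclins and growth genes, of which 0 rose.

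Nqo1, a quinone reductase of the antioxidant response (ENSMUSG00000003849.8, chromosome 8, 107388225 to 107403206), had 2.09, 2.75 and 2.36 CPM in back LRC against 4.17, 3.85 and 5.72 in back nLRC, and 6.09, 6.94 and 7.05 in tail LRC against 12.3, 8.76 and 9.8 in tail nLRC. Palate libraries held 24.8 and 28.3 CPM in LRC against 33 and 54.7 in nLRC, and tongue libraries 22.5 and 21.1 in LRC against 36.3 and 28.5 in nLRC. Again no LRC library overlapped the nLRC libraries of its tissue, and the common effect was −0.69 ± 0.11 (adjusted p = 0.0168, edgeR). Malic enzyme Me1 (−0.68 ± 0.14) and the export pump Abcc3 (−0.66 ± 0.11) fell as well, each lower in 9 of 10 pairs. Nqo1, Me1 and Abcc3 are known targets of the factor NRF2. Of these only Nqo1 was named by the rule; Phgdh, Psat1, Me1 and Abcc3, and every gene named further on that is no member of the 20 or of a list, were picked after their values were seen.

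**Figure D2:**
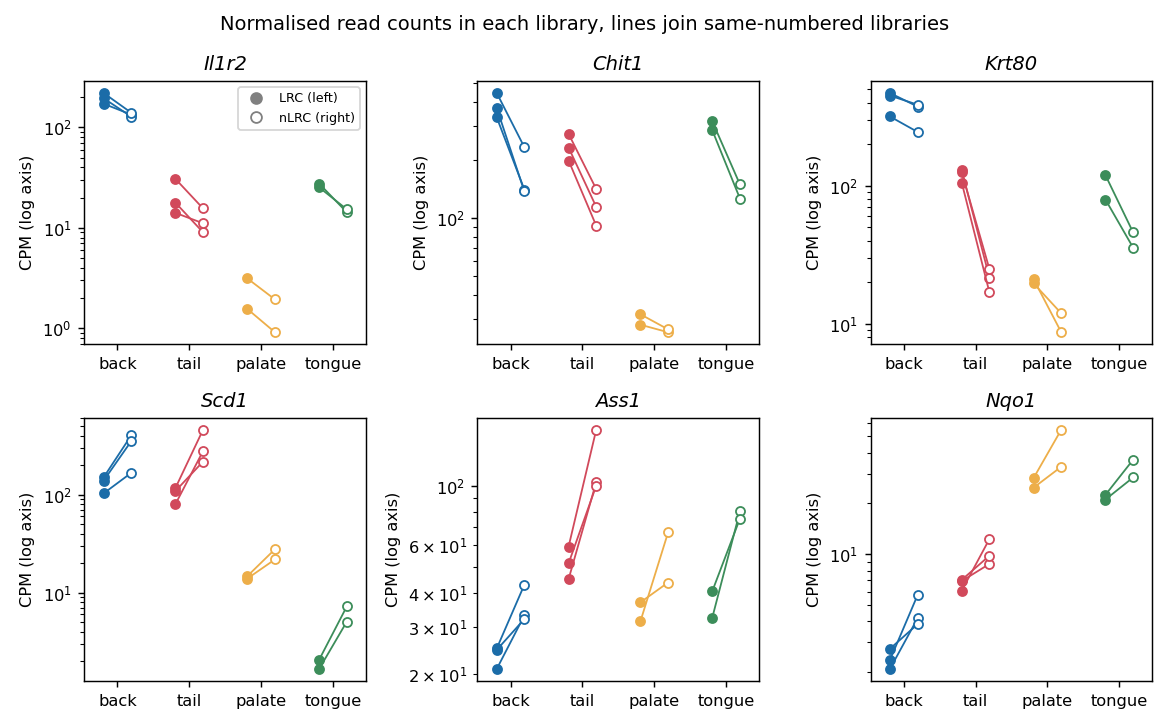
CPM (log axis) of 6 genes in each basal library of the 4 tissues (x axis), with LRC as filled points on the left and nLRC as open points on the right, and lines joining libraries of the same number. Il1r2, Chit1 and Krt80 stood higher in LRC in 10 of 10 pairs and Scd1, Ass1 and Nqo1 lower in 10 of 10.

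Genes of mitochondrial respiration leaned the same way, mostly without passing. Of 28 nuclear genes of oxidative phosphorylation 0 rose and 1, the complex subunit Ndufa4, fell (−0.47 ± 0.10). All 28 had a fold change below 0, with a median of −0.35 against −0.006 over all genes, and 26 of 28 had an unadjusted p under 0.05, against 1850 lower of all 17103. The median was −0.29 in back, −0.56 in tail, −0.55 in palate and −0.02 in tongue. All genes tested had −0.04 in tongue, so the list was not lower than all genes there. Outside the list, the ATP synthase gene Atp5k (−0.69 ± 0.11), the chaperonin Hspd1 (−0.40 ± 0.07), the β-oxidation gene Hadha (−0.44 ± 0.07), the ubiquinone synthesis gene Coq3 (−0.39 ± 0.07) and the mitochondrially encoded mt-Nd5 (−0.38 ± 0.08) fell, each lower in 10 of 10 pairs. Of 27 ribosomal protein genes on a list 0 rose and 0 fell at a median of −0.19, which became 0.03 on deposited TPM, a unit that the values show to rest on exon reads; there the median of oxidative phosphorylation was −0.19 and that of all genes 0.08.

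The share of reads from introns was higher in LRC in each tail and palate pair. In the median gene it was 41.9, 55.9 and 51.4% in tail LRC libraries against 27.6, 38.2 and 43.9% in tail nLRC, and 40.6 and 34.4% in palate LRC against 37.4 and 13.6% in palate nLRC. It was higher in LRC in 9 of 10 pairs and lower in the second tongue pair (34.3% in LRC, 46.1% in nLRC). In back and the first tongue pair it was nearly equal. Back had 64.1, 60 and 53.2% in LRC against 63.5, 57.2 and 52.3% in nLRC, and that tongue pair 46.9 against 46.8%. Genes that fell were short, with a median span of 13.7 kb, and genes that rose were long, 39.4 kb, against 23.3 kb over all genes. Without the second palate pair, whose nLRC library had the lowest intron share, 64 genes passed the common test, 51 of them among the 110. The part of intron share in the shared falls and rises was not tested.

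Ltbr, the lymphotoxin β receptor, fell by 0.86 ± 0.13 and Hmgn5, a nucleosome-binding protein, by 0.82 ± 0.12, both lower in 10 of 10 pairs. Fgfbp1, which releases fibroblast growth factors from the matrix, had a median of 62.6 CPM over the 10 LRC libraries and 137 over the 10 nLRC libraries. It fell by 0.80 ± 0.15, with an effect of −0.03 in tongue. The complement protease gene C1s1 fell by 1.01 ± 0.19, but tongue libraries held at most 1.4 CPM of it.

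Genes of the Hippo pathway, in which the coactivator YAP works through TEAD factors and angiomotins and Ajuba proteins modulate it, gave 2 falls. Amotl2 had 26.9, 33.8 and 26.5 CPM in back LRC against 55.9, 60.1 and 68.7 in back nLRC, and 20.8, 23.9 and 25.3 in tail LRC against 37.2, 56.9 and 49.3 in tail nLRC. In tongue it had 26.5 and 28.1 CPM in LRC against 59.6 and 61.2 in nLRC, and in palate 45.2 and 53.1 in LRC against 49.2 and 49.1 in nLRC. The groups were apart in 3 tissues, and in palate the LRC libraries spanned the nLRC ones. The common effect was −0.86 ± 0.14 (adjusted p = 0.0168, edgeR) and differed between tissues (adjusted p = 0.0128, edgeR). Ajuba fell by 0.33 ± 0.06 in 10 of 10 pairs. Of 18 genes tested on the list of cytoskeleton and YAP targets these 2 fell, against 0.345% of all genes, 0 rose, and the median was −0.11. The list did not move as 1: 8 members were above 0 and 10 below. By sign alone 4 were higher and 4 lower in all 4 tissues. Its median was −0.34 in back and −0.18 in tongue, but 0.08 in tail and 0.10 in palate. The effect differed between tissues at 5 of the 18, against 6.84% of all genes.

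The 250 bases before 1 RefSeq start of both genes are shown (GRCm38.p6) beside those of the higher genes Mxi1 and Ngef. They were printed because all 4 hold letters of the TEAD motif GGAATG or the FoxO motif GTAAACA, both in capitals on either strand. Of the windows of a gene the first that held the motif was taken, so its start may be an alternative one inside the gene. GGAATG stood 65 bases before the start of the lower gene Amotl2 and 164 and 186 before that of the lower gene Ajuba, but also 37 before that of the higher gene Ngef. GTAAACA stood 231 bases before the start of Mxi1 and 68 before that of Ngef, but also 154 before that of Ajuba, so in these 4 windows neither motif went with 1 direction.
Amotl2, chr9:102717554-102717803, plus strand: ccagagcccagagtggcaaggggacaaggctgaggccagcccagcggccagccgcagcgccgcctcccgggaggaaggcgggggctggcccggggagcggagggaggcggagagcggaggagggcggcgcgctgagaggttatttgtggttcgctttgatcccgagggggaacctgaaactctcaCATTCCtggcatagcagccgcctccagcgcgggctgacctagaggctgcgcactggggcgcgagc
Ajuba, chr14:54577662-54577911, minus strand: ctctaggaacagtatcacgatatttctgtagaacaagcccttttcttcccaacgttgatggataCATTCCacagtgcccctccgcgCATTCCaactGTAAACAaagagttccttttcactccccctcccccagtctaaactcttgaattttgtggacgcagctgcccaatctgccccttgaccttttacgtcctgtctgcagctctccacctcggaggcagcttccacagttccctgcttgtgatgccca
Mxi1, chr19:53329445-53329694, plus strand: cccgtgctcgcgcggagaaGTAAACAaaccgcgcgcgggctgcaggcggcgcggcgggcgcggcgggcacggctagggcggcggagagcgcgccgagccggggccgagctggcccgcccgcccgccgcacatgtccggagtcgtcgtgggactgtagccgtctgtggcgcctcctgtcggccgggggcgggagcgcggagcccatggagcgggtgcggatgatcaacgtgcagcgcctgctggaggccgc
Ngef, chr1:87573871-87574120, minus strand: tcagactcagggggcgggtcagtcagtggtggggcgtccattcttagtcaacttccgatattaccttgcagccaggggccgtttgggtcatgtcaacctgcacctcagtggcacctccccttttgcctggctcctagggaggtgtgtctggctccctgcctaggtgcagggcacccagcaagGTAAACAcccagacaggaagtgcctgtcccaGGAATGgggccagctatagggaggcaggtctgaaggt

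Matches were searched in all windows of the same length, for 30 of the 44 shared higher genes, 39 of the 54 shared lower genes and 11920 of all genes tested. Some genes had more than 1 window, and a gene was counted once if any of its windows held the letters. GGAATG was in 7 of the higher genes (23.3%), 10 of the lower (25.6%) and 13.4% of all. GTAAACA was in 3 of the higher (10.0%), 1 of the lower (2.56%) and 2.79% of all. The antioxidant response letters TGACNNNGC were in 6 of the 30 higher genes, 2 of the lower (5.13%) and 13.6% of all, and the windows of Nqo1 and Me1 held none. The E-box letters CACGTG were in 3 of the higher (10.0%), 4 of the lower (10.3%) and 9.2% of all. No motif contains another, both strands were searched, and the 4 motifs were chosen after gene values were seen. These are counts of letters only.

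A gene of cytokine signalling was among the rises with the smallest p. Il1r2, the decoy receptor that takes up interleukin-1 without signalling (ENSMUSG00000026073.13, chromosome 1, 40074079 to 40125231), had 172, 195 and 220 CPM in back LRC against 134, 128 and 140 in back nLRC, and 17.8, 30.7 and 14.1 in tail LRC against 9.02, 15.6 and 11.1 in tail nLRC. Its level was 3.14 and 1.56 CPM in palate LRC against 1.94 and 0.914 in palate nLRC, and in tongue 27.6 and 25.3 in LRC against 14.3 and 15.3 in nLRC. Groups were apart in back and tongue and overlapped in tail and palate, where each pair still pointed up. The common effect was 0.69 ± 0.08 (1.62-fold higher, adjusted p = 0.00553, edgeR), with tissue effects of 0.54 to 0.84.

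The secreted factors Gdnf (0.77 ± 0.15), Wnt5b (0.72 ± 0.13) and Vegfa (0.69 ± 0.13) rose. Vegfa was the 1 gene that rose of 23 tested on a list of glycolysis and hypoxia genes, of which 0 fell. The tissue plasminogen activator gene Plat (0.75 ± 0.13) and the plasminogen activator inhibitor gene Serpinb2 (0.70 ± 0.13) rose as well.

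Chit1, a chitin-cleaving enzyme (ENSMUSG00000026450.14, chromosome 1, 134111242 to 134151540), had 331, 443 and 370 CPM in back LRC against 140, 232 and 137 in back nLRC, and 231, 272 and 198 in tail LRC against 114, 141 and 91.1 in tail nLRC. In tongue it had 284 and 316 CPM in LRC against 126 and 149 in nLRC, and in palate 28 and 31.7 in LRC against 25.6 and 26.5 in nLRC. Its common effect was 0.95 ± 0.12 (1.93-fold higher, adjusted p = 0.00553, edgeR), and its tissue effects of 0.19 ± 0.16 in palate and 1.03 to 1.20 elsewhere differed (adjusted p = 0.0272, edgeR).

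Cyp2b10, a cytochrome P450 of foreign compound metabolism (ENSMUSG00000030483.14, chromosome 7, 25897620 to 25926624), had 50.3, 58 and 105 CPM in back LRC against 19.2, 31.7 and 80.7 in back nLRC, and 5.64, 5.33 and 9.87 in tail LRC against 1.21, 0.473 and 1.58 in tail nLRC. In palate it had 3.65 and 0.275 CPM in LRC against 0.216 and 0.152 in nLRC, and in tongue 6.34 and 10.7 in LRC against 2.4 and 2.74 in nLRC. Its common effect of 1.66 ± 0.27 was the largest of the rises named by the rule, spanned 0.87 in back and 3.59 in palate and differed between tissues (adjusted p = 0.0186, edgeR). The palate value rests on 1 LRC library, and the gene belongs to a family of close copies, so its counts are uncertain. Ngef, an exchange factor for small GTPases, rose by 0.89 ± 0.14, the Rab11 effector gene Rab11fip4 by 0.87 ± 0.16 and the proton pump subunit gene Atp6v0a4 by 0.86 ± 0.14. The adhesion receptor gene Adgrv1 (1.19 ± 0.22) and the imprinted zinc finger gene Peg3 (1.18 ± 0.23) rose too, each in 9 of 10 pairs; back libraries held at most 1.34 CPM of Peg3.

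Mxi1, an antagonist of MYC, had a median of 71.5 CPM over the 10 LRC libraries and 54.7 over the 10 nLRC libraries, and rose by 0.38 ± 0.06 with tissue effects of 0.24 to 0.54. Arrdc3, an arrestin-like regulator of receptors, rose by 0.53 ± 0.07 and Pik3ip1, an inhibitor of PI3 kinase, by 0.42 ± 0.09, all 3 in 10 of 10 pairs. The ubiquitin ligase gene Fbxo32 (0.65 ± 0.13) and Wee1, the kinase that holds cells before mitosis (0.50 ± 0.10), rose in 9 of 10. These 5 genes were picked after their values were seen, and no test of them as a group was made. Each of the 5 effects was less than 1 on the log2 scale, and Fbxo32 had 0.03 in tongue.

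Lists of mitosis and DNA replication genes had no member past the test. Of 34 mitosis genes 0 rose and 0 fell, and the median common effect was 0.21, made of −0.24 in back, 0.71 in tail, 0.41 in palate and −0.16 in tongue. The effect differed between tissues at 15 of the 34, against 6.84% of all genes tested. The summed mitosis level was 3360, 1330 and 2170 CPM in tail LRC against 1570, 1140 and 1280 in tail nLRC, and 1440 and 2050 in palate LRC against 1120 and 1590 in palate nLRC. It was 513, 537 and 674 CPM in back LRC against 523, 691 and 727 in back nLRC, and 1390 and 808 in tongue LRC against 1380 and 1180 in tongue nLRC. In tail and palate these values go against the name slow-cycling, and in back they were lower in LRC in all 3 pairs. The proliferation marker Mki67 averaged 107 ± 10.2 CPM in back LRC and 124 ± 20.3 in back nLRC, and 624 ± 210 in tail LRC and 450 ± 12.1 in tail nLRC (SD, n = 3 each). In palate it averaged 365 ± 129 CPM in LRC and 334 ± 26.4 in nLRC, and in tongue 169 ± 111 in LRC and 256 ± 22.1 in nLRC (SD, n = 2 each). Of 40 DNA replication genes 0 rose and 0 fell. A fold change above 0 was held by 37, 17 of them with an unadjusted p under 0.05 (edgeR) against 1350 higher of all genes, and the median was 0.19. That median was 0.28 in back and 0.37 in tail, but −0.05 in palate and 0.09 in tongue. Ccne1, the cyclin of S phase entry, had 0.64 ± 0.15 (adjusted p = 0.0681, edgeR). Missing the threshold does not show that division genes were equal in LRC and nLRC.

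Of 20 genes of cell cycle exit and CDK inhibitors 0 rose and 1, the stress gene Gadd45a, fell (−0.94 ± 0.17), in 10 of 10 pairs. Cdkn1a, which encodes p21, had 0.30 ± 0.10 and did not pass. Of 19 p53 targets 1, Plk2, fell (−0.44 ± 0.07) and 0 rose. Of 19 circadian clock genes 0 passed, with 16 above 0 and a median of 0.20, which was 0.10 in back, 0.002 in tail, 0.43 in palate and 0.26 in tongue. The immediate early list had a median of 0.23 with 0 of 20 past the test. By tissue the median was −0.09 in back, 0.52 in tail, 0.39 in palate and 0.18 in tongue.

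**Figure D3:**
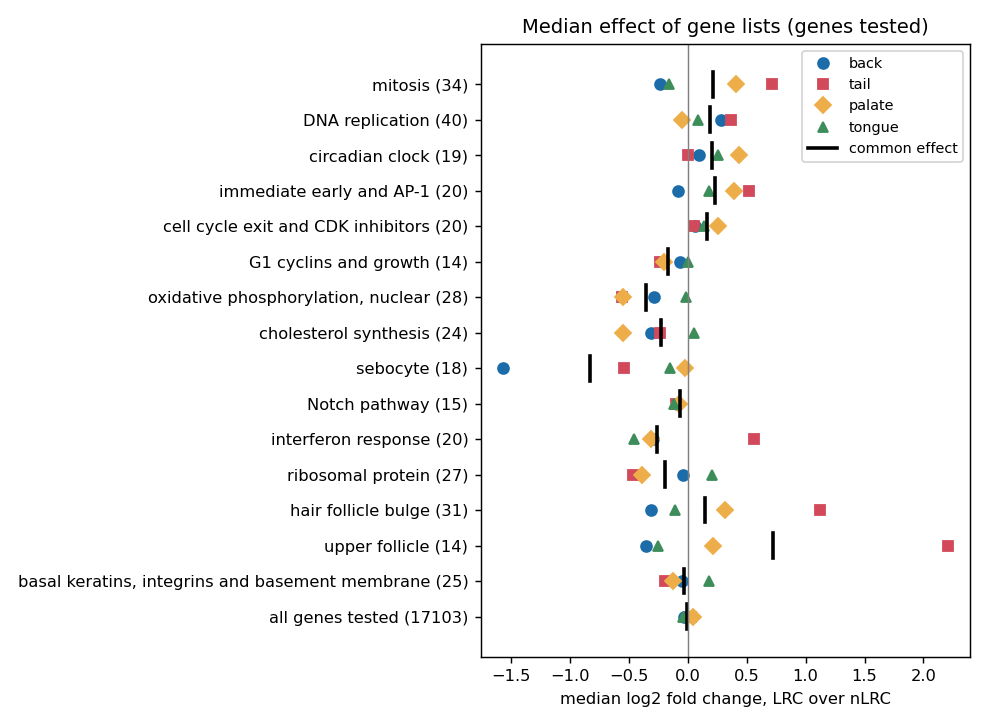
Median log2 fold change of LRC over nLRC (x axis) of the tested genes of 15 lists and of all genes tested, with the number of genes in brackets. Symbols give the tissue effects and black bars the common effect. Mitosis runs from −0.24 in back to 0.71 in tail. Oxidative phosphorylation lies below all genes in back, tail and palate, but not in tongue, at −0.02 against −0.04.

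Markers of position and differentiation were then counted. Of 14 upper follicle genes 2 rose, Ly6g6c, a small surface protein (1.30 ± 0.24), and Krt80, a type II keratin (1.27 ± 0.26), and 0 fell, against 0.298% higher of all genes, at a median of 0.72 that was 2.21 in tail and −0.36 in back. Krt80 (ENSMUSG00000037185.9, chromosome 15, 101347444 to 101370162) had 129, 105 and 125 CPM in tail LRC against 21.6, 16.9 and 24.9 in tail nLRC, and 317, 469 and 449 in back LRC against 245, 374 and 386 in back nLRC. In palate it had 19.6 and 21 CPM in LRC against 11.9 and 8.68 in nLRC, and in tongue 79.3 and 119 in LRC against 35.6 and 45.9 in nLRC. Libraries overlapped in back alone, and its effect differed between tissues (adjusted p = 4.25e-05, edgeR), as did that of Ly6g6c (adjusted p = 0.00534, edgeR). The summed upper follicle level was 782 to 1290 CPM in tail LRC against 277 to 357 in tail nLRC, and the part of follicle cells in the tail values was not tested.

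Of 23 granular layer genes 2 rose, Spink5, a protease inhibitor of the barrier (1.02 ± 0.20), and Aloxe3, a lipoxygenase of barrier lipids (0.71 ± 0.14), against 0.298% higher of all genes, and 0 fell. Spink5 was not higher in tongue, at 145 and 168 CPM in LRC against 170 and 174 in nLRC. Of the 31 hair follicle bulge genes, 25 basal keratin, integrin and basement membrane genes and 22 spinous genes 0 rose and 0 fell. Summed bulge genes had 3160 to 3620 CPM in tail LRC against 2120 to 2350 in tail nLRC, while in back the ranges overlapped. The effect of bulge genes differed between tissues at 16 of the 31, against 6.84% of all genes. The basal list summed to 25400 to 26000 CPM in tail LRC against 37400 to 49400 in tail nLRC. In tongue it stood the other way, at 27400 to 29600 CPM in LRC against 23100 to 23200 in nLRC. Of 15 Notch pathway genes 1, the receptor gene Notch1, fell (−0.35 ± 0.07), in 10 of 10 pairs, and 0 rose. The lists of Wnt, BMP and TGF-β, EGF receptor, IGF, interferon, MHC class I, wound, desmosome, oral epithelium and tail scale genes had 0 genes past the test in either direction. The tail scale sum was nonetheless 135 to 299 CPM in tail LRC against 1060 to 1790 in tail nLRC. The part of cell composition in these sums was not tested.

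Of 6 marker genes of the label classes 1, Skint7, rose, 0 fell and 1 direction in all 4 tissues was held by Slc1a3. Igfbp3, an insulin-like growth factor binding protein, had 310, 188 and 282 CPM in back LRC against 32.1, 21.5 and 34.9 in back nLRC, and 42, 98.3 and 43.1 in tail LRC against 54, 103 and 58.1 in tail nLRC. In palate it had 176 and 220 CPM in LRC against 128 and 195 in nLRC, and in tongue 104 and 96.3 in LRC against 34.1 and 26.4 in nLRC. Its tissue effects of 3.14 in back, −0.28 in tail, 0.31 in palate and 1.74 in tongue differed (adjusted p = 1.36e-06, edgeR). Skint7, of a keratinocyte surface family, passed at 2.03 ± 0.24 with nearly all its reads in back skin, at 59.8, 68.9 and 78.4 CPM in LRC against 16.5, 18 and 18.8 in nLRC. It was at 0 CPM in all palate and tongue libraries. Slc1a3, a glutamate transporter, had 1 direction in all 4 tissues at −0.74 ± 0.23 and did not pass (adjusted p = 0.114, edgeR), and Dlx1, a homeobox gene, had 0.05 ± 0.33.

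Some genes moved against each other between tissues. Sostdc1, an inhibitor of BMP and Wnt signals, had 259, 117 and 173 CPM in tail LRC against 59.9, 43.2 and 49.5 in tail nLRC, yet 30.8, 48.8 and 33.4 in back LRC against 70.3, 98.7 and 139 in back nLRC. Its effect was 1.79 in tail, −1.42 in back and −1.31 in tongue (test of a difference, adjusted p = 2.41e-05, edgeR). Alcam, an adhesion molecule, had effects of −2.49 in back, 2.58 in tail, 2.81 in palate and −3.28 in tongue, each past the test in its tissue. Lrig1, a brake on EGF receptor signalling and marker of the upper follicle, had 2.91 in tail and −0.37 to 0.22 elsewhere.

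Markers of other cells in the sort were summed over the members tested, and in most lists 1 gene carried the sum. Of 8 fibroblast genes 1, the matrix gene Dcn, fell (−1.54 ± 0.26) and 0 rose, and 4 were above 0 and 4 below. Dcn had 90.4 and 42.5 CPM in tongue LRC against 212 and 139 in tongue nLRC, and 73 and 45.1 in palate LRC against 118 and 149 in palate nLRC. The collagen gene Col6a1 stood the other way in tongue, at 19.6 and 24 CPM in LRC against 0.901 and 1.11 in nLRC, and so did Col6a2, at 8.74 and 7.23 in LRC against 0.701 and 1.28 in nLRC. The list's median was −0.11 for the common effect, 0.99 in palate and 0.75 in tongue, while its sum was 119 to 172 CPM in tongue LRC against 194 to 268 in tongue nLRC. The median and the sum of fibroblast genes thus differed in sign in both oral tissues.

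The endothelial sum was that of Pecam1, an adhesion molecule, at 2.23 to 5.67 CPM in tongue LRC against 29.5 to 38.7 in tongue nLRC. The other 6 endothelial genes summed to 1.86 to 1.88 CPM in tongue LRC against 1.88 to 5.21 in tongue nLRC. Of the Langerhans cell and macrophage list Epcam, an adhesion molecule that epithelial cells also make, held 30.6 to 44.7 CPM in tail LRC against 6.93 to 12.4 in tail nLRC. The other 7 members summed to 3.57 to 8.04 CPM in tail LRC against 2.08 to 3.43 in tail nLRC. Thy1, a surface protein of T cells and of other cells, made up nearly all of the T cell sum, with 59.5 to 75 CPM in back LRC against 94.1 to 114 in back nLRC. The other 3 T cell genes together reached at most 2.34 CPM in back LRC and 1.14 in back nLRC, and Cd3e, which defines T cells, was higher in LRC in each back pair, at 0.643, 1.61 and 0.83 CPM in LRC against 0.569, 0.13 and 0.312 in nLRC. Of the endothelial, melanocyte, Langerhans and macrophage, T cell, Merkel, nerve, muscle, erythrocyte and taste markers 0 rose and 0 fell across the 4 tissues, and their part in the shared genes was not tested.

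The spinous layer of back skin gave LRC and nLRC libraries outside the 20, 3 each. They may come from the same animals as the back basal libraries, since they carry the same numbers. There, 5058 of 14017 genes (36.1%) differed between LRC and nLRC, 2469 higher (17.6%) and 2589 lower (18.5%). Of 102 shared genes tested in that layer, 93 (91.2%) had the same direction as in the basal layers, against 64.4% of 13863 genes. The test was passed in the same direction by 71 (69.6%, against 25.8% of all), and in the opposite direction by 2, Tnfrsf19 and Zgrf1. Scd1 had −3.48 ± 0.24 there, Chit1 2.28 ± 0.19 and Nqo1 −2.28 ± 0.32, each past the test, and Il1r2 had 0.39 ± 0.19 and did not pass.

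**Figure D4:**
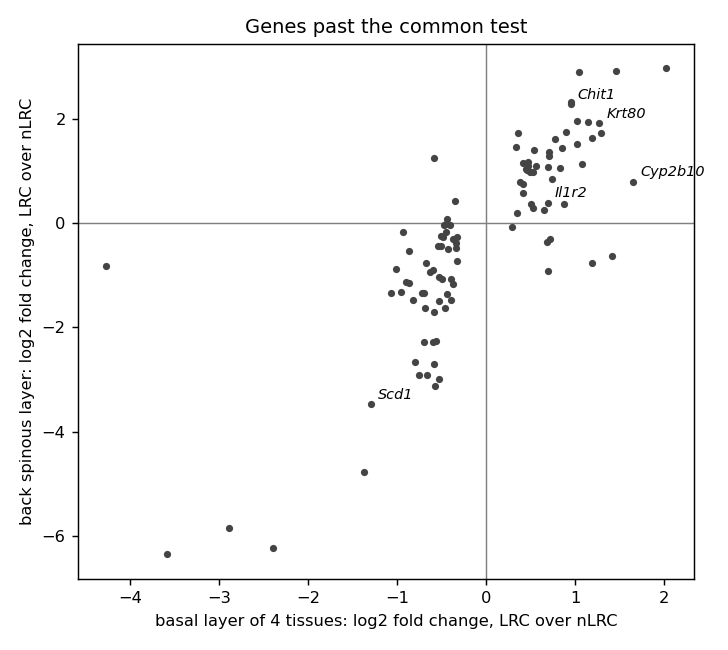
LRC effect (log2 fold change) in the back spinous layer (y axis) against the common effect in the basal layer of 4 tissues (x axis) for the genes past the common test that were tested in both; each point is a gene. Of 102 genes 93 lie at lower left or upper right, where both effects have 1 sign.

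At the edge of the test lay Rhobtb1 (0.49 ± 0.10, adjusted p = 0.0479) and Dcaf6 (0.29 ± 0.06, adjusted p = 0.0493) just inside, and Cers2 (−0.63 ± 0.13) and Ech1 (−0.46 ± 0.10) just outside, both at adjusted p = 0.0507 (edgeR). The call rested on the pairing and on single pairs. Without the pairing 33 genes passed (17 higher, 16 lower), 30 of them among the 110. With 1 pair left out in turn the count ran from 25 (without the third tail pair) to 600 (without the second tongue pair), and 18 genes passed in all 10 such fits, among them Scd1, Ass1, Nqo1, Hmgn5, Ltbr, Il1r2, Arrdc3, Mxi1, Chit1, Ngef and Atp6v0a4. All genes of the 110 that could be tested kept their sign in each of these fits. The fits reuse libraries that chose the genes, so a kept sign was likely from the start. Genes chosen in 3 tissues kept their sign in the fourth at 57.3 to 75%.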

How the data were processed

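Per the labels' protocols, cells freed with trypsin overnight were stained, sorted into Trizol and turned into libraries by a low-input, strand-keeping kit for total RNA; the submitters' processing notes name mm10. Aligner, counter and strand setting: not given in the sources used here. Overlapping and antisense genes are therefore uncertain. For every library the authors deposited raw counts (total gene reads, exons and introns) and TPM, the latter from exon reads as the values show. Tables share 47436 gene names, and only these shared names were used. Of them 47041 were matched to an mm10 annotation, which gave positions, spans and the intron share. The match did not limit the genes tested: 16922 of the 17103 had a span.

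Counts of the 20 basal libraries were tested with edgeR 4.0.16 (R 4.3.3) after TMM scaling and filterByExpr (minimum count 10, minimum total 15), by the quasi-likelihood F test with Benjamini-Hochberg adjusted p under 0.05. The design held 10 tissue-by-number blocks and the label class; a second fit gave each tissue its own effect. Standard errors were obtained as effect size divided by √F. A gene with 0 reads in a tissue got no direction there. The test was tried on simulated data first.

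Same-numbered LRC and nLRC libraries deviated together from group means at r = 0.237 to 0.333 in back, 0.262 to 0.539 in tail, 0.251 in palate and 0.047 in tongue, the last too low to show pairing. The block was kept for all tissues because the comparison was set up with it.

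Named genes are the 10 largest rises and falls among called genes whose mean log2 CPM is 3 or more, with 1 sign in 4 tissues, without predicted, mitochondrial and ribosomal genes, of which 2 are not reported here; up to 4 members per list (40 lists, 711 genes) with the smallest p, of which part is printed; 5 label class markers; the 6 genes with the smallest p for a difference between tissues; and 2 genes on each side of the threshold. Members, lists and motifs were chosen with earlier results of these data known. Alternatives were no block, median-of-ratios scaling, DESeq2 1.42.0, no filter, removal of ribosomal RNA-like features, limma 3.58.1 on log2(TPM + 1) for genes with TPM of at least 1, and pairs or tissues left out. The mean of 4 tissue effects, genes with 10 reads in every tissue, the spinous layer, the intron share (genes with at least 50 reads in every library and a span of 10 times the exon length) and the motifs were added after seeing the data.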

Additional observations from a re-analysis of the deposited data

Results flagged for a closer look

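The LRC effect differed between tissues for 6 of the 18 named genes with the largest shared rises and falls, against 6.84% of all genes. This was by the edgeR quasi-likelihood test of the difference with Benjamini-Hochberg adjustment. For Cyp2b10 (adjusted p = 0.0186), Ly6g6c (adjusted p = 0.00534), Krt80 (adjusted p = 4.25e-05) and Rab11fip4 (adjusted p = 0.0108) the effect was smallest in back skin, at 0.87, 0.35, 0.31 and 0.23 on the log2 scale. For Chit1 (adjusted p = 0.0272) and Amotl2 (adjusted p = 0.0128) it was smallest in palate, at 0.19 and −0.007.

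The same test singled out genes with no shared direction. These were Igfbp3 (adjusted p = 1.36e-06), Alcam (adjusted p = 1.36e-06), Eya2 (adjusted p = 1.38e-06), Aldh3a1 (adjusted p = 1.76e-06), Arhgap24 (adjusted p = 2.61e-06), Lrig1 (adjusted p = 3.61e-06) and Sostdc1 (adjusted p = 2.41e-05). Eya2, a transcriptional coactivator, had effects of 2.55 in tail and 0.96 in palate against −3.03 in back and −2.62 in tongue.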

How the results depend on the processing

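The count of 110 shared genes moved with most settings: 33 with no replicate block, 509 with no low-count filter, 905 in DESeq2, 37 with limma on TPM, 42, 6 and 281 without back, tail and tongue, 266 in skin pairs, 0 in oral pairs (702 at an unadjusted p under 0.05 in edgeR) and 1212 for the mean of 4 tissue effects. It was 25 to 600 with 1 pair left out. Of the 110, 30 passed without the block, 101 in DESeq2 and 24 of 108 on TPM. In any setting 0 reversed, but all settings used libraries that had chosen these genes. The 98 shared genes of 1 direction were 28 with no replicate block, 339 with no filter and 21 (without the third tail pair) to 535 (without the second tongue pair) with a pair left out. With no replicate block, with no filter, and as the range with a pair left out, effects that differed between tissues (1170) numbered 362, 2456 and 795 to 2815, and between skin and oral tissues (202) 31, 604 and 112 to 359. In the same order, genes of back (494) numbered 165, 894 and 173 to 770, of palate (72) 0 (1604 at an unadjusted p under 0.05 in edgeR), 871 and 46 to 2154, and of tongue (143) 6, 430 and 40 to 294. Genes of tail (2305) numbered 796 with no replicate block and 928 to 3522 with a pair left out. The highest of these ranges came without the first palate pair for the differences between tissues, back, tail and palate. Sign alone in 4 tissues stayed within 1.5 times. Over 24 settings the 18 genes with the largest shared rises and falls gave 431 values, of which 297 kept their call, 134 lost it and 0 reversed; the cause was not tested. Leaving out 1 library leaves its partner alone in its block, so pairs were left out whole. Palate and tongue, with 2 pairs each, limit what 1 shared effect can show. No label says what the replicate numbers stand for.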

Other observations

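Muc5ac, a gel-forming mucin of glands and surface epithelia, had 164 and 0.458 CPM in palate LRC libraries against 16 and 0 in palate nLRC, and Ltf, lactoferrin of secretions, had 182 and 5.77 in palate LRC against 9.07 and 0.152 in palate nLRC. For both genes the first palate pair held nearly all reads, and back libraries were at 0 CPM. S100g, a calcium-binding protein, had 1.35, 4.23 and 1.6 CPM in tail LRC against 0, 0.118 and 0 in tail nLRC. It had 0.6 and 0.196 CPM in tongue LRC against 0.1 and 0 in tongue nLRC, and 1.82 and 0 in palate LRC against 0 and 0 in palate nLRC.

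Alb, the albumin gene, had 1.98, 0.321 and 1.66 CPM in back LRC libraries against 25.6, 17.5 and 35.5 in back nLRC, and at most 0.0846 in any other tissue. Tnfrsf19, a receptor of the TNF family, was lower in LRC of all 4 basal layers (−0.58 ± 0.11) and higher in LRC of the back spinous layer (1.25, adjusted p = 0.00484, edgeR quasi-likelihood test). Zbtb10, a zinc finger repressor gene, had an effect of 2.63 in tail and 2.24 in tongue, 0.73 in back and 0.51 in palate, and was higher in LRC in 10 of 10 pairs.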
